A study of Rattus norvegicus with 16 samples.

Results

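Vinclozolin is a dicarboximide fungicide whose metabolites act against androgens, and the comparison described here asked what exposure before weaning left behind in the mammary gland of the adult female rat. Its members are the 2 arrays titled as vinclozolin alone at postnatal day 50 (PND50) and the 2 arrays titled as untreated control at PND50, 4 of the 16 arrays of the series. All came from the mammary glands of female Wistar Han rats, and per the labels' protocols every dam and pup received a purified diet free of phytoestrogens. In the vinclozolin group the dam was gavaged once a day with 1 mg/kg body weight of vinclozolin, starting on gestational day 1 and ending at weaning on PND 21. The control group is labelled as untreated, and a vehicle gavage of its dams is not mentioned in the labels. The offspring themselves were not dosed after weaning, so the PND50 values were measured in rats no longer under treatment. One female per litter was kept. RNA extracts of single glands were mixed, 5 animals to a pool, and each pool was hybridised to its own array. Each group therefore had 2 pools, and the p-values below measure the spread between pools rather than between animals. The other 12 arrays hold control and vinclozolin pools at PND35 and pools of genistein, a soy isoflavone given at 1 mg/kg body weight/day, and of genistein with vinclozolin (the mixture) at both ages.

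At this age the rat mammary gland is a virgin gland in which a small branching epithelium lies in a large fat pad. The epithelium has inner luminal cells, which can make milk proteins under prolactin and glucocorticoids, and outer basal cells that contract. Prolactin acts through the kinase JAK2 and the factor STAT5, which binds a palindromic motif in the promoters of casein genes, while androgens oppose epithelial growth in the gland.

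The values are the authors' deposited array intensities, read as log2, on which a difference of 1 is a 2-fold difference. Markers of the labelled tissue were checked first. In all 4 arrays the luminal keratin Krt18, the luminal factors Elf5 and Gata3, the milk protein Lalba and the adipocyte hormone Adipoq lay between 8.66 and 12.68. Probe sets for Mki67, Krt5 and Acta2 are not used here, since no probe set was paired with exactly 1 of these symbols. The pools of each group correlated at 0.9963 (vinclozolin) and 0.9965 (control) over all probe sets, within the range of 0.9893 to 0.9966 of all 8 groups.

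Csn2, Csn1s2a and Wap were among the genes with the highest differences, and their promoters are shown first, with that of Csn1s1, a casein gene whose difference was small. These are the 250 bases before the start of the gene in RefSeq's rat assembly GRCr8, all on chromosome 14, written along the strand of the gene. Capitals mark the letters TTCNNNGAA, the STAT5 type of palindrome, which reads the same on both strands. Csn2 encodes beta-casein (chr14:20601574-20601823, plus strand), Csn1s1 alpha-s1-casein (chr14:20638850-20639099, minus strand), Csn1s2a an alpha-s2-casein (chr14:20574472-20574721, minus strand) and Wap whey acidic protein (chr14:85719160-85719409, minus strand).
Csn2: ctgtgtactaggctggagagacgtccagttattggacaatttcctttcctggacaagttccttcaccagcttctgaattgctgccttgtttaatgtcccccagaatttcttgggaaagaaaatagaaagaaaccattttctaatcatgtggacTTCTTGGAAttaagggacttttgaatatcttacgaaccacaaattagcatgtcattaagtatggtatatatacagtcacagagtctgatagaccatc
Csn1s1: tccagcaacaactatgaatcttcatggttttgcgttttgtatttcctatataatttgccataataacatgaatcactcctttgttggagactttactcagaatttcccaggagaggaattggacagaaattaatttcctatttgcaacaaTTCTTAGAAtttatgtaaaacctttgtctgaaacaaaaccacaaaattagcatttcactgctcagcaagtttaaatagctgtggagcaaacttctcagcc
Csn1s2a: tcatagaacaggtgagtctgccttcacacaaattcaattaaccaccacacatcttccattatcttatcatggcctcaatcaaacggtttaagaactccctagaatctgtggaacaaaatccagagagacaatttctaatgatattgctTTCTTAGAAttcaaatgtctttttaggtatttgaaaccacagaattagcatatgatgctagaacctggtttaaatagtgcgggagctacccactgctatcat
Wap: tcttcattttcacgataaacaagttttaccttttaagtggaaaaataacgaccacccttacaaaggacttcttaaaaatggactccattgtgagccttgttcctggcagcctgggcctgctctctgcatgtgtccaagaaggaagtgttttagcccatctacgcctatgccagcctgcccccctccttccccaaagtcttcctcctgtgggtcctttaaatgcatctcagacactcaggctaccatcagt
The motif began 97, 100 and 102 bases before the start in Csn2, Csn1s1 and Csn1s2a, and the Wap window does not hold these letters. Of 27457 RefSeq promoter windows of this length, 7.52% held the motif, as did 5.75% of the 9735 windows matched by symbol to genes tested here and 4 of the 20 matched genes of the milk list. A match of letters is a description and does not show binding.

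Across 11796 genes tested, no gene was called as different between vinclozolin and control at PND50. With 2 pools per group this does not show that no gene differed. The test was limma's moderated test with Benjamini-Hochberg adjustment over all genes, and the smallest adjusted p was 0.798, so 0 genes were called higher and 0 lower (0% of genes). At an unadjusted p under 0.05 there were 713 genes (6.04%), 268 higher (2.27%) and 445 lower (3.77%), where 590 would pass by chance. The median standard error of a difference was 0.09 on the log2 scale. Over all genes the median difference was -0.02 and 42.7% of genes were higher with vinclozolin, 57.3% lower. Both vinclozolin pools lay above both control pools in 1754 genes (14.9%) and below both in 2998 genes (25.4%). At least a 1.5-fold difference was seen in 77 genes upward (0.653%) and 23 downward (0.195%). Every gene named below for this comparison therefore failed the test across all genes, and its values are given as measurements with a standard error or 95% interval, not as calls.

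The 12 genes higher with vinclozolin that had the smallest p-values among those at least 1.5-fold apart without overlap were C9h2orf72, Slc34a2, Chrdl2, Lipa, Slc38a3, Apobec2, Pvalb, Tnnt3, Cpm, Eno3, Klhl31 and Bhlhe41. C9h2orf72 (probe set 10924874), an open reading frame with no role stated here, measured 7.54 and 7.79 in the vinclozolin pools, against 6.83 and 6.88 in the control pools. Its difference of 0.81 (SE 0.14) was the smallest in p of all genes, at an adjusted p of 0.798 in limma. The groups did not overlap, which was a condition for naming these genes. A gap wide against the spread within groups follows from ranking them by p.

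Slc34a2 (probe set 10777037), the sodium-phosphate cotransporter NaPi-IIb that carries phosphate in lactating mammary epithelium, measured 10.35 and 10.52 with vinclozolin, against 8.94 and 9.50 in controls. The difference was 1.21 (SE 0.23), with a 95% interval of 0.71 to 1.72, and an adjusted p of 0.798 in limma. Both vinclozolin pools stood above both control pools. Chrdl2, a secreted binder of bone morphogenetic proteins, measured 7.68 and 7.98 with vinclozolin, against 6.89 and 7.05 in controls, a difference of 0.86 (SE 0.17). Lipa, the lysosomal acid lipase that splits cholesteryl esters, measured 9.86 and 9.79 with vinclozolin, against 9.10 and 9.30 in controls. For Lipa the difference was 0.63 (SE 0.14), and as for Chrdl2 no pool of one group lay within the other.

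Slc38a3, a glutamine transporter, measured 8.86 and 8.85 with vinclozolin, against 8.01 and 8.26 in controls (difference 0.72, SE 0.17). Cpm, a membrane carboxypeptidase that trims peptide hormones, measured 8.96 and 8.93 with vinclozolin, against 8.30 and 8.37 in controls (difference 0.61, SE 0.16). The pools of a group were close to each other for both genes. Apobec2, Pvalb, Tnnt3, Eno3 and Klhl31 are genes of skeletal muscle, and they are described with that list below, as is Bhlhe41 with the clock genes.

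**Figure D1:**
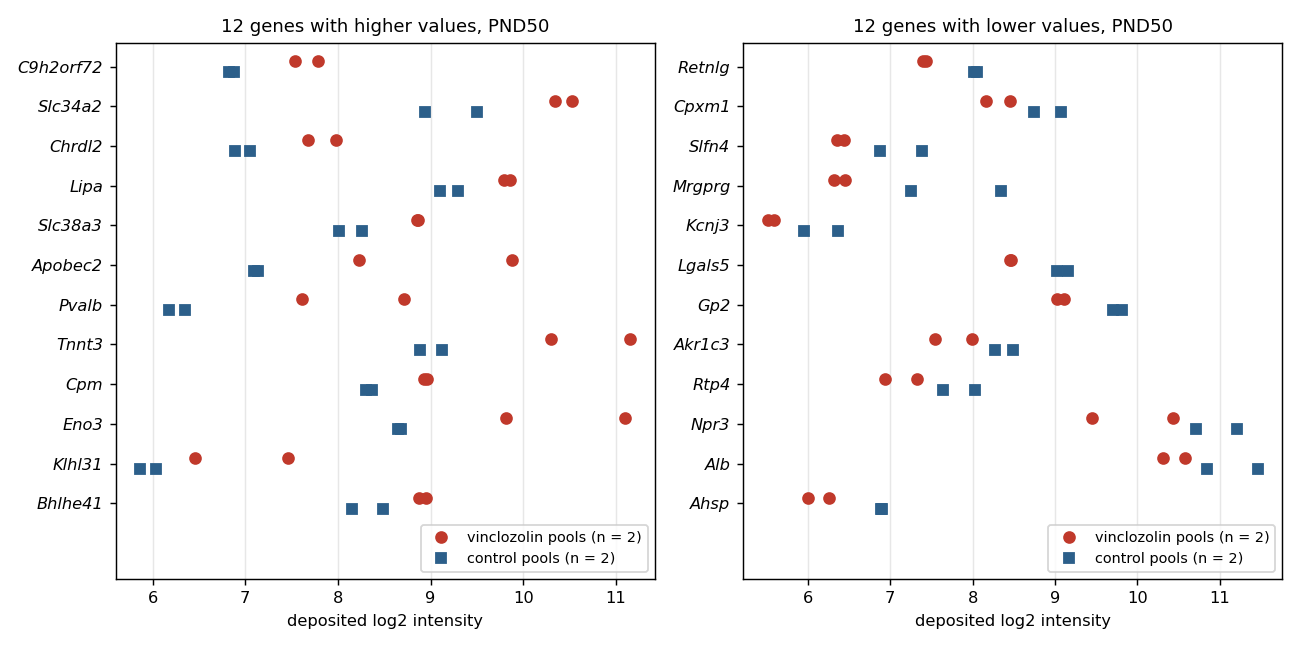
Deposited log2 intensity (x axis) of the 12 genes higher and the 12 genes lower with vinclozolin at PND50, in order of p from the top, with circles for the 2 vinclozolin pools and squares for the 2 control pools. No pool of one group lies within the other, which was a condition for naming them, and none of the 24 genes passed the test over all genes; Apobec2, at 9.88 and 8.23 with vinclozolin, shows the wide spacing of the vinclozolin pools in muscle genes.

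The milk genes form the first group. Of 22 tested members of a list of milk proteins and secretory genes, 8 were higher at an unadjusted p under 0.05 and 0 lower, beside 2.27% and 3.77% of all genes. In 13 of them both vinclozolin pools lay above both control pools, beside 14.9% of all genes, and the median difference was 0.24, beside -0.02 over all genes, or 0.15 without the first control pool. None passed the adjusted test. Wap (probe set 10778379), whey acidic protein, measured 9.75 and 10.14 with vinclozolin, against 8.10 and 8.94 in controls. Its difference was 1.42 (SE 0.40), with an interval of 0.56 to 2.29, and the pools did not overlap.

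The caseins whose promoters are shown above fell into 2 patterns of size. Csn2 (probe set 10771893) measured 11.26 and 11.69 with vinclozolin, against 8.07 and 10.45 in controls, a difference of 2.21 (SE 0.98). Csn1s2a (probe set 10776175) measured 9.71 and 10.75 with vinclozolin, against 6.19 and 9.51 in controls, a difference of 2.38 (SE 1.13), the highest of all genes tested. For both genes the first control pool stood far below the other 3 arrays. Without that pool the difference was 1.02 for Csn2 and 0.72 for Csn1s2a, and without the second control pool it was 3.40 and 4.04. Csn1s1, Csn1s2a and Csn3 were added to the named genes after their values were seen.

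Csn1s1 (probe set 10776190), the alpha-s1-casein gene, was near the top of the array's range, at 13.24 and 13.18 with vinclozolin, against 12.88 and 13.06 in controls (difference 0.24, SE 0.11). Csn3, kappa-casein, measured 12.14 and 12.46 with vinclozolin, against 11.94 and 12.10 in controls (difference 0.29, SE 0.13). Both were without overlap but differed by a small amount. Btn1a1, butyrophilin of the milk fat globule membrane, measured 11.87 and 11.85 with vinclozolin, against 11.52 and 11.52 in controls (difference 0.34, SE 0.13). Mfge8, another protein of that membrane, measured 11.78 and 11.80 with vinclozolin, against 11.37 and 11.64 in controls (difference 0.29, SE 0.11). Lalba, alpha-lactalbumin, the cofactor of lactose synthesis, did not share the pattern, at 12.04 and 12.33 with vinclozolin, against 12.15 and 12.13 in controls. Its groups overlapped, with a difference of 0.05 and an interval of -0.22 to 0.32.

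The luminal and basal markers give the measure of the epithelium itself. Of 29 luminal genes 22 were positive, with a median of 0.11, 2 higher at an unadjusted p under 0.05 and 0 lower. Of 13 basal and myoepithelial genes 11 were positive, also with a median of 0.11, 1 higher and 0 lower. Beside these counts stand 42.7% positive, 2.27% higher and 3.77% lower of all genes. The luminal median was 0.06 without the first control pool, and the basal median was 0.05 without the first vinclozolin pool and 0.18 without the second. The luminal score, the mean of the list's values each centred over all 16 arrays, was 0.19 and 0.25 with vinclozolin, against 0.09 and 0.18 in controls. In bulk tissue, more cells of a type and more RNA per cell cannot be told apart. With this score as a covariate the milk list's median was 0.21.

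Elf5, the ETS factor that drives alveolar differentiation, measured 10.70 and 11.02 with vinclozolin, against 10.32 and 10.49 in controls. Its difference was 0.46 (SE 0.13), with an interval of 0.17 to 0.75 and no overlap of the pools. Elf3, another epithelial ETS factor, measured 7.49 and 7.37 with vinclozolin, against 7.04 and 7.13 in controls (difference 0.34, SE 0.13). Itga6, the laminin receptor chain of basal cells, measured 10.31 and 10.30 with vinclozolin, against 10.11 and 10.15 in controls (difference 0.17, SE 0.06). Muc1, the luminal mucin, had the highest difference of the luminal list, at 9.08 and 9.59 with vinclozolin, against 8.70 and 8.89 in controls (difference 0.54, SE 0.29), and the lowest of the list was -0.57. Of the markers in the panel of named genes, Gata3, the factor that keeps luminal identity, differed by 0.03, Krt18 by 0.11 and the basal keratin Krt14 by 0.19, with intervals of -0.26 to 0.31, -0.12 to 0.35 and -0.39 to 0.77.

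**Figure D2:**
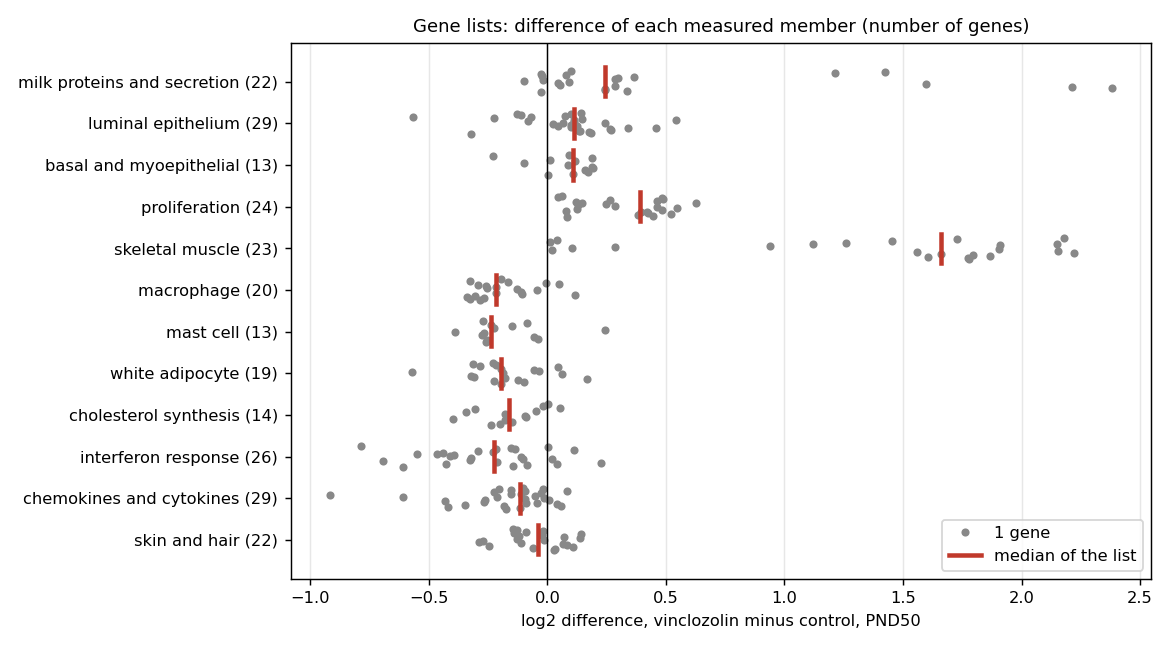
Log2 difference, vinclozolin minus control at PND50 (x axis), of each tested gene of 12 lists (rows, with the number of genes), with a thick bar at the list's median. The skeletal muscle list has the highest median, 1.66, and the mast cell list the lowest of those drawn, -0.24, while the milk list holds a few genes above 1 and many near 0.

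Hormone receptors and their signalling genes stayed close to control values. Over 16 genes tested the median was 0.01. At an unadjusted p under 0.05, 1 was higher and 0 lower, beside 2.27% and 3.77% of all genes. That gene was Vdr, the vitamin D receptor, at 9.44 and 9.47 with vinclozolin, against 8.83 and 9.10 in controls (difference 0.49, SE 0.10, interval 0.27 to 0.70). Esr1, estrogen receptor alpha, measured 10.40 and 10.48 with vinclozolin, against 10.44 and 10.34 in controls, a difference of 0.05 with an interval of -0.25 to 0.34. Pgr, the progesterone receptor and an estrogen target, differed by -0.23 (-0.93 to 0.48), Prlr, the prolactin receptor, by -0.07 (-0.38 to 0.24) and Ghr, the growth hormone receptor, by -0.16 (-0.40 to 0.08). These pools overlapped for Esr1, Pgr and Prlr, and the interval for Pgr leaves room for nearly a 2-fold difference downward.

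Downstream of these receptors the picture was similar. Cish, a STAT5 target that damps cytokine signalling, measured 8.74 and 8.71 with vinclozolin, against 8.54 and 8.18 in controls (difference 0.36, SE 0.18). Stat5a and Stat5b, the prolactin-activated factors, differed by 0.12 and 0.08. The 20 genes of androgen response had a median of -0.05. Of these, 2 were higher and 1 lower at an unadjusted p under 0.05, beside 2.27% and 3.77% of all genes. The 2 were Slc45a3, a sugar transporter known as prostein, at 8.82 and 8.33 with vinclozolin, against 8.27 and 8.10 in controls, and Ndrg1, an androgen- and hypoxia-inducible gene, at 12.19 and 12.16 with vinclozolin, against 11.90 and 11.83. The lower one was Dbi, the acyl-CoA binding protein, at 8.998 and 9.21 with vinclozolin, against 9.41 and 9.38 in controls. Zbtb16, which responds to androgens and glucocorticoids, differed by -0.55 with a wide error (SE 0.38). The 16 genes of estrogen and progesterone response had a median of -0.10, with 1 higher and 0 lower, beside the same 2.27% and 3.77%.

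Paracrine growth factors of the gland were near 0 as groups. The medians were -0.01 for 14 genes of the IGF axis and -0.04 for 23 Wnt genes, and 7 of the 14 EGF family genes were positive. Areg, amphiregulin, the estrogen-induced ligand of ductal growth, measured 9.27 and 9.52 with vinclozolin, against 9.61 and 9.82 in controls. Its difference was -0.32, with an interval of -0.90 to 0.26. Wnt4, induced by progesterone, differed by -0.06 (-0.30 to 0.19), Igf1 by -0.08 (-0.22 to 0.07), Egfr by -0.06 (-0.22 to 0.09) and Fgf10, a mesenchymal signal for budding, by -0.32 (-0.78 to 0.13). Tnfsf11, the RANK ligand, lay under the filter on dim genes and was not tested. For Igf1 and Egfr the intervals allow less than a 1.5-fold difference either way.

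Genes of skeletal muscle had the highest median of the 37 lists. Of 23 tested, 23 were positive and 17 were higher at an unadjusted p under 0.05, beside 2.27% of all genes, with a median of 1.66, and none passed the adjusted test. Pvalb, a calcium buffer of fast fibres, measured 8.72 and 7.61 with vinclozolin, against 6.34 and 6.17 in controls. Tnnt3, fast troponin T, measured 11.16 and 10.30 with vinclozolin, against 8.89 and 9.12 in controls. Eno3, muscle enolase, measured 11.10 and 9.82 with vinclozolin, against 8.68 and 8.65 in controls. The differences were 1.91 (SE 0.48), 1.73 (SE 0.43) and 1.80 (SE 0.47), and in each gene the first vinclozolin pool was far above the second.

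Apobec2, a cytidine deaminase family member of muscle, measured 9.88 and 8.23 with vinclozolin, against 7.14 and 7.09 in controls. Klhl31, a kelch protein of muscle, measured 7.46 and 6.46 with vinclozolin, against 6.04 and 5.87 in controls. Neither is in the list, and both had the same order of pools. The myosin Myh4 of fast fibres stood at 9.84 and 8.46 with vinclozolin, against 6.96 and 7.02 in controls. The slow-fibre genes Myl2, Myh7, Tnnt1 and Tnni1 differed by 0.10, 0.02, 0.04 and 0.01. These 4 genes and Acta1 below were singled out after their values were seen.

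The muscle score was 1.14 and 0.00 with vinclozolin, against -0.73 and -0.87 in controls, and between -1.59 and -0.42 in the mixture and genistein pools of the same age. The list's median was 0.75 without the first vinclozolin pool and 2.44 without the second. Muscle RNA was measured in controls too, where Tnnt3, Eno3 and the muscle actin Acta1 lay above 8.6. With the muscle score as a covariate the smallest adjusted p over all genes was 1.00, and the differences were 0.77 for C9h2orf72, 1.23 for Slc34a2, 1.32 for Wap and 0.65 for Apobec2. The milk list's median was 0.24 with that covariate. The part of muscle RNA in the other differences was not tested beyond these values.

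Proliferation genes were all positive, 24 of 24, beside 42.7% of all genes, with a median of 0.39. At an unadjusted p under 0.05, 2 were higher, beside 2.27% of all genes, and none passed the adjusted test. Bub1b, a checkpoint kinase of the spindle, measured 6.67 and 6.60 with vinclozolin, against 5.87 and 6.36 in controls (difference 0.52, SE 0.19). Kif11, a spindle motor, measured 8.10 and 8.05 with vinclozolin, against 7.21 and 7.83 in controls (difference 0.55, SE 0.20). Top2a, topoisomerase of dividing cells, measured 9.25 and 9.32 with vinclozolin, against 8.33 and 9.26 in controls (difference 0.49, SE 0.29). In all 3 the second control pool was closer to the vinclozolin pools and the first was lower.

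The proliferation score was 0.07 and 0.17 with vinclozolin, against -0.52 and 0.12 in controls, so 1 control pool carried the difference. Without the first control pool the list's median was 0.00, and without the second it was 0.75. The cycling cells' G1 cyclin Ccnd1 overlapped between groups, with a difference of 0.07 and an interval of -0.17 to 0.31. The same first control pool was also the lower one in the milk score, at -0.19 against 0.38 in the second control pool and 0.51 and 0.69 with vinclozolin.

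**Figure D3:**
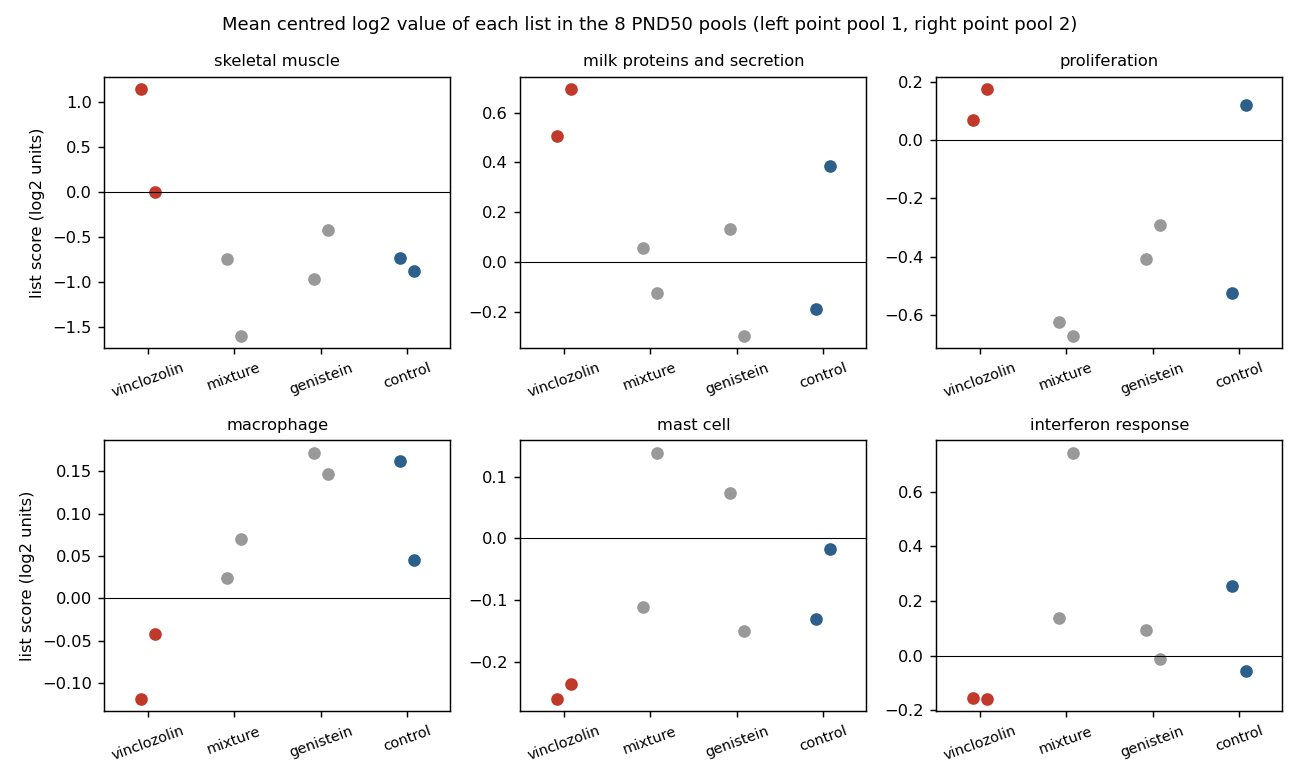
Score of 6 gene lists (y axis, mean of log2 values centred on each gene's mean over 16 arrays) in the 8 PND50 pools, with the left point of each group for pool 1 and the right for pool 2. The first vinclozolin pool stands alone in the muscle score at 1.14, and the first control pool is below both vinclozolin pools in the proliferation score at -0.52.

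Downward, the 12 genes with the smallest p-values among those at least 1.5-fold apart without overlap were Retnlg, Cpxm1, Slfn4, Mrgprg, Kcnj3, Lgals5, Gp2, Akr1c3, Rtp4, Npr3, Alb and Ahsp. Retnlg (probe set 10753861), a resistin-like peptide of myeloid cells, measured 7.43 and 7.39 with vinclozolin, against 8.05 and 8.01 in controls. Its difference was -0.62 (SE 0.12), with an interval of -0.89 to -0.35 and an adjusted p of 0.798 in limma. The pools of each group nearly coincided, and the groups were apart, as the rule for naming genes required. Slfn4, a schlafen gene of myeloid cells, measured 6.44 and 6.35 with vinclozolin, against 7.38 and 6.87 in controls (difference -0.73, SE 0.17).

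Mrgprg (probe set 10727152), a receptor of the Mas-related family, had the lowest difference of all genes tested, -1.41 (SE 0.40). It measured 6.45 and 6.32 with vinclozolin, against 7.26 and 8.34 in controls. Its pools did not overlap, but the control pools were far apart, and the difference was -0.87 without the second of them. Cpxm1, a secreted carboxypeptidase-like protein, measured 8.46 and 8.16 with vinclozolin, against 9.07 and 8.75 in controls. Npr3, the natriuretic peptide clearance receptor, measured 9.45 and 10.44 with vinclozolin, against 11.21 and 10.71 in controls. Akr1c3, an aldo-keto reductase of steroid metabolism, measured 7.54 and 7.99 with vinclozolin, against 8.50 and 8.27 in controls. The differences of Cpxm1, Npr3 and Akr1c3 were -0.60, -1.01 and -0.62, with standard errors of 0.14, 0.45 and 0.23. Without the first vinclozolin pool they were -0.52 for Npr3 and -0.39 for Akr1c3. The remaining 6 ran between -0.76 for Ahsp, a chaperone of alpha-globin, and -0.61 for Kcnj3, a potassium channel subunit. Among them were Lgals5, a galectin of rat red cell precursors, at -0.63 and Rtp4, an interferon-induced chaperone of receptors, at -0.70. Gp2, a membrane glycoprotein of zymogen granules, differed by -0.70 and the albumin gene Alb by -0.71. Without the first control pool the difference was -0.40 for Alb and -0.40 for Kcnj3, and for Slfn4 it was -0.48.

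Macrophage, dendritic and mast cell lists had more negative members than the 57.3% of all genes, and none of their genes passed the adjusted test. Of 17 T and natural killer cell genes 10 were negative, a share near that of all genes, with a median of -0.03. Of 20 macrophage genes 18 were negative and 7 were lower at an unadjusted p under 0.05, beside 3.77% of all genes, with a median of -0.22. In 14 of the 20 both vinclozolin pools lay below both control pools, beside 25.4% of all genes. Siglec1, the sialoadhesin of resident macrophages, measured 7.83 and 7.96 with vinclozolin, against 8.30 and 8.13 in controls (difference -0.32, SE 0.09). C1qb, a chain of complement C1q, measured 9.63 and 9.80 with vinclozolin, against 10.09 and 10.01 in controls (difference -0.34, SE 0.12). Adgre1, a surface receptor that marks macrophages, measured 8.31 and 8.30 with vinclozolin, against 8.61 and 8.57 in controls (difference -0.28, SE 0.10).

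Of 16 dendritic cell and antigen presentation genes 15 were negative, and 4 were lower and 0 higher at an unadjusted p under 0.05, beside 3.77% and 2.27% of all genes, with a median of -0.12. Clec10a, a lectin of dendritic cells and macrophages, measured 7.61 and 7.82 with vinclozolin, against 8.14 and 8.17 in controls (difference -0.44, SE 0.10). Ciita, the master regulator of class II genes, measured 6.999 and 7.03 with vinclozolin, against 7.26 and 7.24 in controls (difference -0.24, SE 0.07). Of 13 mast cell genes 12 were negative and 3 lower, beside the same 3.77%, with a median of -0.24. Il1rl1, the interleukin-33 receptor, measured 8.24 and 8.50 with vinclozolin, against 8.67 and 8.85 in controls (difference -0.39, SE 0.10). Hdc, the enzyme that makes histamine, measured 7.39 and 7.63 with vinclozolin, against 7.77 and 7.80 in controls (difference -0.28, SE 0.09). With the muscle score as a covariate the medians were -0.18 for macrophage, -0.06 for dendritic and -0.08 for mast cell genes.

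Of 29 chemokines and cytokines 5 were lower and 0 higher at an unadjusted p under 0.05, beside 3.77% and 2.27% of all genes. Their median was -0.12, and it was -0.06 without the first vinclozolin pool and -0.22 without the second. Ccl2, the monocyte attractant, measured 10.83 and 11.14 with vinclozolin, against 11.28 and 11.53 in controls (difference -0.42, SE 0.14). Its receptor Ccr2 measured 9.75 and 9.93 with vinclozolin, against 10.31 and 10.24 in controls (difference -0.43, SE 0.19). Of 26 interferon response genes 21 were negative, beside 57.3% of all genes, but 1 was lower at an unadjusted p under 0.05, beside 3.77%. This was Ifi44, at 8.55 and 8.54 with vinclozolin, against 9.09 and 8.85 in controls. The interferon score was -0.16 and -0.16 with vinclozolin, against 0.26 and -0.06 in controls, and the list's median of -0.22 was -0.06 without the first control pool. The 17 T and natural killer cell genes and the 10 B and plasma cell genes each had a median of -0.03.

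The fat pad's genes were lower by a small amount. Of 19 white adipocyte genes 3 were positive, beside 42.7% of all genes, and 1 was lower at an unadjusted p under 0.05, beside 3.77%. The list's median was -0.19, and -0.09 without the first control pool. The lower gene was Cidec, a protein of lipid droplet fusion, at 11.42 and 11.46 with vinclozolin, against 11.85 and 11.65 in controls (difference -0.31, SE 0.08). Adipoq differed by -0.10, with an interval of -0.32 to 0.12. Of 14 cholesterol synthesis genes 10 had both vinclozolin pools below both control pools, beside 25.4% of all genes. Their median was -0.16, and -0.09 without the first control pool. Sc5d, an enzyme of a late step, measured 10.04 and 10.11 with vinclozolin, against 10.43 and 10.33 in controls (difference -0.30, SE 0.13).

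Clock genes differed in both directions within their list, whose median was 0.00. Nr1d1, the REV-ERB alpha repressor, measured 9.86 and 10.47 with vinclozolin, against 8.51 and 8.75 in controls (difference 1.53, SE 0.58). Dbp, a clock output factor, measured 10.04 and 10.32 with vinclozolin, against 9.63 and 9.52 in controls (difference 0.60, SE 0.24). Bhlhe41, a repressor of the clock loop, measured 8.95 and 8.88 with vinclozolin, against 8.49 and 8.15 in controls (difference 0.59, SE 0.16). Nfil3, which competes with Dbp at the same promoters, measured 7.65 and 7.45 with vinclozolin, against 8.05 and 7.88 in controls (difference -0.41, SE 0.18). None of the 4 overlapped between groups, and none passed the adjusted test. They were chosen by smallest p, and Bhlhe41 was named on the condition of no overlap, so the lack of overlap adds no separate evidence. Of the 14 clock genes tested, 4 had both vinclozolin pools above both control pools and 7 below, beside 14.9% and 25.4% of all genes. The hour of tissue collection is not stated in the labels, and its part in these differences was not tested.

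Matrix proteases and their inhibitors had a median of -0.11 over 19 genes, which was 0.00 without the second vinclozolin pool. Mmp16, a membrane-bound protease, differed by 0.33 (SE 0.09), and Timp1, a protease inhibitor, by 0.30 (SE 0.11). Lists that follow tissue handling had medians of 0.01 for 26 ribosomal protein genes, 0.04 for 21 immediate early genes and -0.06 for 22 heat shock and unfolded protein genes. Of those 22, 17 were negative, beside 57.3% of all genes. At an unadjusted p under 0.05, 4 of the 22 were lower, beside 3.77% of all genes. In 9 of them both vinclozolin pools lay below both control pools, beside 25.4% of all genes.

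A second, separate contrast of vinclozolin exists at PND50, the mixture against genistein, and it shares no pool with vinclozolin against control. In limma 3 genes were called higher there and 0 lower (0.0254% and 0% of genes), and 999 had an unadjusted p under 0.05 (8.47%). Met, the receptor of hepatocyte growth factor, rose to 9.60 and 9.62 in the mixture, against 9.05 and 9.10 with genistein, a difference of 0.53 (SE 0.06, adjusted p = 0.0281). Slc5a8, a monocarboxylate transporter, rose to 9.89 and 9.99 in the mixture, against 8.57 and 8.48 with genistein (1.42, SE 0.19, adjusted p = 0.0424). Cytip, an adaptor of lymphocytes, rose to 8.79 and 9.06 in the mixture, against 8.18 and 7.96 with genistein (0.86, SE 0.12, adjusted p = 0.0424). Leaving out 1 array at a time left between 0 and 4 calls, with 0 without either mixture pool, either vinclozolin or control pool at PND50, or the second genistein pool. Without the first genistein pool none was higher and 1 gene was lower, so none of these 3 genes was called. Leaving out a control pool at PND35 also left 0, and a vinclozolin pool at PND35 left 1 higher. With vinclozolin alone against control the same 3 genes differed by 0.04, 0.31 and -0.02.

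Of the 24 genes named for vinclozolin alone, 8 had the same sign in the mixture against genistein (33.3%), beside 51.7% of all genes. The muscle genes Apobec2, Pvalb, Tnnt3, Eno3 and Klhl31 were all negative there, as was the median of the muscle list, so they are not separate observations. Of the 12 genes named as higher, 3 were also positive in the mixture against genistein, and of the 12 named as lower, 5 were also negative, where 45% and 55% of all genes had these signs. Slc34a2 measured 9.01 and 8.81 in the mixture, against 9.39 and 8.85 with genistein, a difference of -0.21. C9h2orf72 measured 6.44 and 6.67 in the mixture, against 6.96 and 6.96 with genistein, a difference of -0.40. For Slc34a2 the groups overlapped, and for C9h2orf72 both mixture pools lay below both genistein pools.

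Cpm kept its sign, at 9.03 and 9.003 in the mixture, against 8.44 and 8.37 with genistein, where its difference of 0.61 matched the 0.61 of vinclozolin alone. Mrgprg kept its sign too, at 6.89 and 6.48 in the mixture, against 7.48 and 8.90 with genistein (difference -1.50, SE 0.40). Chrdl2 and Bhlhe41, the other 2 of the 3 higher genes that were also positive there, differed by 0.52 and 0.34. None of these 4 passed the adjusted test in either contrast. Across 11796 genes the 2 contrasts had the same sign in 51.7%, with a correlation of -0.06 across genes, which are not independent.

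The lists were split in this respect, sorted here only by the sign of their medians. Medians of opposite sign were found for muscle, at 1.66 with vinclozolin alone and -0.52 in the mixture against genistein, for proliferation, at 0.39 and -0.34, and for interferon genes, at -0.22 and 0.21. Chemokines and cytokines also had opposite signs, at -0.12 and 0.09. The muscle scores overlapped, at -0.74 and -1.59 in the mixture, against -0.97 and -0.42 with genistein. The same sign was found for milk (0.24 and 0.08), luminal (0.11 and 0.19) and basal genes (0.11 and 0.12), in the same order. The milk scores overlapped between these groups, at 0.06 and -0.13 in the mixture, against 0.13 and -0.30 with genistein. Of the 22 milk genes, 14 were positive in that contrast. Medians of the same sign were also found for macrophage (-0.22 and -0.16), mast cell (-0.24 and -0.06), white adipocyte (-0.19 and -0.13) and cholesterol genes (-0.16 and -0.07). Of the 13 mast cell genes, 6 were positive in the mixture against genistein. The mast cell scores overlapped there, at -0.11 and 0.14 in the mixture, against 0.07 and -0.15 with genistein. The difference between both contrasts was tested gene by gene, and 0 of 11796 genes passed in limma (smallest adjusted p 0.554, with 768 at an unadjusted p under 0.05, 6.51%). Averaged over the presence of genistein, 0 genes passed for vinclozolin at PND50 (smallest adjusted p 0.218, with 1035 at an unadjusted p under 0.05, 8.77%).

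**Figure D4:**
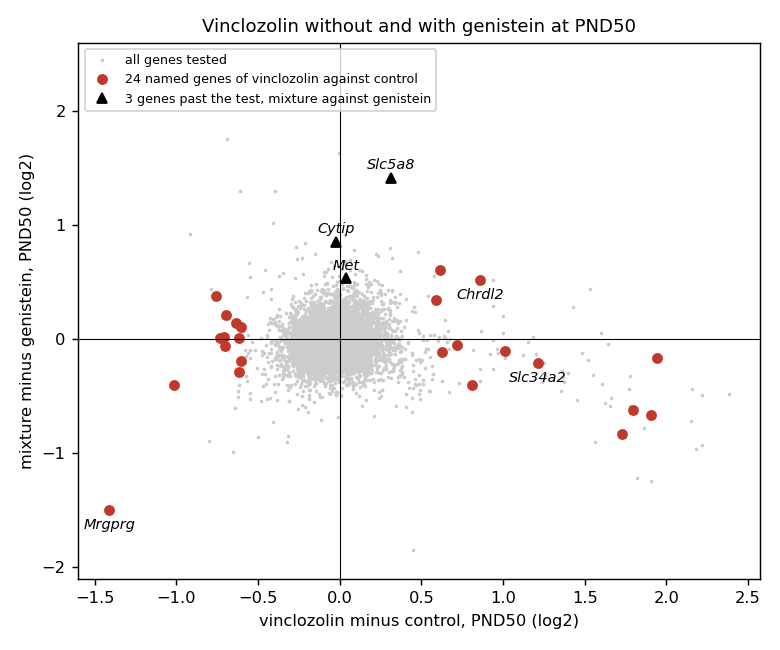
Log2 difference of each gene for vinclozolin minus control (x axis) and for mixture minus genistein (y axis) at PND50, with small dots for all 11796 genes, circles for the 24 named genes and triangles for the 3 genes past the test in the mixture. Slc34a2 sits at 1.21 and -0.21, while Mrgprg is low on both axes, at -1.41 and -1.50.

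The last comparison set the PND50 difference against that at PND35, using 4 pools of each age, all of them separate. In limma the vinclozolin difference was lower at PND50 than at PND35 in 45 genes (0.381%) and higher in 0 (0%), with 792 at an unadjusted p under 0.05 (6.71%). Several of the 45 passed the filter on dim genes only through the vinclozolin pools at PND35, so the filter itself shaped this count. Among them were Krt25, Krt27, Gsdma, Kprp, Dsg4, Krt26 and Krtap15-1. The count was 56 with no filter and 11 with a filter at the 50th percentile. Without the first vinclozolin pool at PND35 176 genes were lower and 10 higher, and without the second 74 and 3. Without any other single pool between 37 and 45 were lower and 0 to 4 higher. All 45 were called higher with vinclozolin at PND35, where 0.966% of genes were. This largely follows from how the 45 were picked, since the test subtracts the PND35 difference, and it adds no separate evidence. At PND50 0 of them were called, as no gene at all was called there. Their differences ran between -0.40 and 0.32 at PND50, with a median of -0.03, and between 0.71 and 5.53 at PND35, with a median of 2.03. Hair and skin genes made up much of the set, with 13 keratins, 3 keratin-associated proteins and 15 genes in all from a list of skin and hair genes that was written with this result known.

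Krt25, a keratin of the hair root's inner sheath, measured 5.03 and 5.15 with vinclozolin at PND50, against 4.95 and 5.06 in controls. At PND35 it measured 10.48 and 10.59 with vinclozolin, against 4.98 and 5.03 in controls. The difference between the ages was -5.45 (SE 0.18, adjusted p = 1.9e-08 in limma), and at PND50 the 4 pools were at the level of the PND35 controls. Krt27, a second inner sheath keratin, measured 5.58 and 5.52 with vinclozolin at PND50, against 5.42 and 5.54 in controls, and 9.77 and 9.51 with vinclozolin at PND35, against 5.49 and 5.62 in controls. Both Krt25 and Krt27 passed the filter on dim genes only through the vinclozolin pools at PND35. The 4 values of each at PND50 lie under the filter value of 5.661. The skin and hair list as a whole had a median of -0.04 at PND50 over 22 genes. At an unadjusted p under 0.05, 0 were higher and 0 lower, beside 2.27% and 3.77% of all genes. Its scores were -0.36 and -0.32 with vinclozolin, against -0.31 and -0.27 in controls.

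The genes named for PND50 were also read at PND35, where 43.7% of all genes were positive and 56.3% negative. Of the 12 named as higher, 6 were positive at PND35, among them Slc34a2 at 0.87 and C9h2orf72 at 0.36. Cpm, the carboxypeptidase, rose at PND35, to 9.74 and 9.35 with vinclozolin, against 7.87 and 7.78 in controls (difference 1.72, adjusted p = 6.8e-05 in limma). Of the 12 named as lower, 12 were negative at PND35, among them Akr1c3 at -0.84, Npr3 at -0.63 and Retnlg at -0.37. For Npr3 and Lgals5 the second vinclozolin pool at PND35 carried the difference, and the first lay above both controls. Npr3 measured 10.96 and 9.50 with vinclozolin, against 10.83 and 10.90 in controls. Lgals5 measured 9.72 and 8.82, against 9.37 and 9.40. The 5 muscle genes Apobec2, Pvalb, Tnnt3, Eno3 and Klhl31 ran between -0.47 and -0.05 at PND35.

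**Figure D5:**
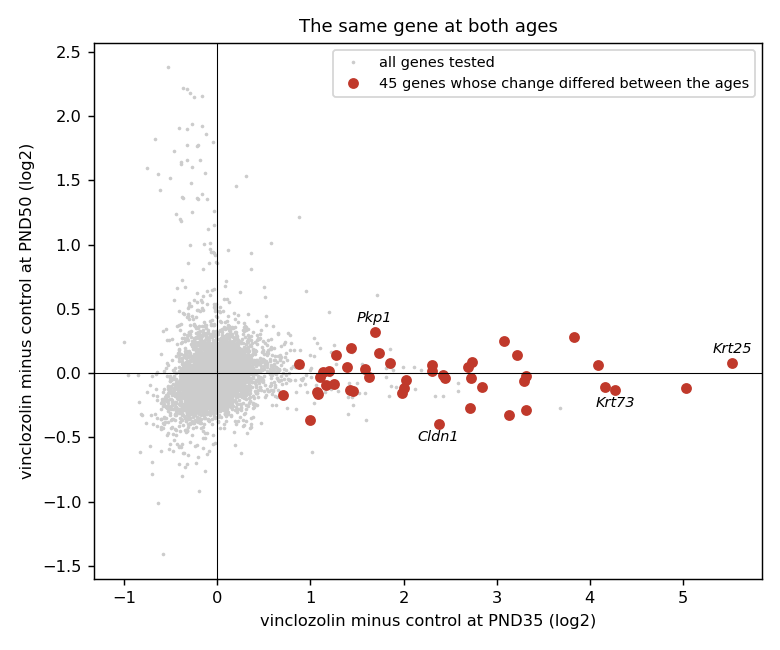
Log2 difference of each gene for vinclozolin minus control at PND35 (x axis) and at PND50 (y axis), with small dots for all 11796 genes and circles for the 45 genes whose difference was lower at PND50 in the test of the difference itself. The circles run out to 5.53 at PND35 (Krt25) and stay between -0.40 and 0.32 at PND50.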

How the data were processed

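The authors' deposited table gives 1 value for each of 27342 probe sets on 16 Affymetrix arrays. The deposited values were read as log2 intensities from their range (2.2 to 13.9), since the sources used here do not give log base, background correction or normalization. Array medians lay between 7.05 and 7.145, and nothing was normalized further. Probe sets were named by GEO's platform annotation, 15097 with 1 symbol and 323 with several, and 15067 names were updated through RefSeq. Of several probe sets of a gene the brightest was kept, and genes whose mean was under the 25th percentile (5.661) were left out, which left 11796.

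Group means of all 16 arrays were fitted with limma 3.58.1 in R 4.3.3 (lmFit and eBayes, 8 residual degrees of freedom, two-sided), at an adjusted p of 0.05. The number of arrays limits the precision. Scripts were tested on simulated data. Figures used matplotlib 3.10.9 in Python 3.11.15.

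The comparison, the 37 gene lists (654 genes tested) and the rule for named genes were chosen with earlier results of these data known. The rule took up to 12 genes per direction among those past the threshold, filled by smallest p among genes at least 1.5-fold apart without overlap or placeholder names, then up to 4 genes per list and a panel. The pools' labels share replicate numbers, but deviations of same-numbered pools correlated between -0.274 and 0.184, so the numbers were not treated as pairs. Alternatives were filters, scaling, probe set choice, a replicate block, weights, an intensity trend, fewer arrays, thresholds, muscle and luminal scores as covariates, and each pool left out. A block with crossed mixture numbers was added after seeing the data.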

Additional observations from a re-analysis of the deposited data

Results flagged for a closer look

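The test of the difference between the ages set 45 genes apart, each with a lower vinclozolin difference at PND50 than at PND35. The 5 with the smallest p were Krt25 (PND50 difference minus PND35 difference -5.45), Krt27 (-4.03), Cnfn (-2.76), Krt28 (-2.95) and Krt73 (-4.41), 4 keratins and cornifelin, a protein of the cornified envelope. At PND50 their differences from control were 0.08, 0.06, -0.04, -0.11 and -0.13. No gene at all was called at PND50, so none of the 5 was, and all 5 were called higher with vinclozolin at PND35. Their calls at PND35 largely follow from selection by the test of the difference. Of these 5, Krt25 and Krt27 passed the filter on dim genes only through the vinclozolin pools at PND35, as did others of the 45. Groups of 2 pools are too small for a check of single outlying samples.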

How the results depend on the processing

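Vinclozolin against control at PND50 gave 0 calls under every alternative run (smallest adjusted p 0.0570 without the second vinclozolin pool, 0.9999 with the muscle score) except the replicate block, which called 1 gene, C9h2orf72 (0.81, SE 0.09, adjusted p = 0.0253 in limma); its adjusted p was up to 0.9999 elsewhere. The age difference called 45 genes, 11 with a filter at the 50th percentile, 98 probe sets (96 lower, 2 higher) with all probe sets, and 38 to 186 genes of either direction without 1 pool. The mixture against genistein called 3 genes, 5 with no filter, 1 with only the PND50 arrays, 0 with all probe sets or with the muscle or the luminal score as a covariate, 2 with the replicate block, 3 with crossed mixture numbers, and 0 to 4 without 1 pool, the call without the first genistein PND50 pool being a lower one. These are counts and do not say which genes were called. Averaged over genistein, 1 gene was called with no filter, 3 with only the PND50 arrays and 0 to 2 without 1 pool. The difference between both contrasts gave 1 gene with the replicate block and 0 to 1 without 1 pool. A cause was not tested for any of these.

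Uncalled differences near 0 changed sign. With the muscle score they became 0.066 for Ereg, 0.011 for Pgr, 0.16 for Prlr and 0.0080 for Egfr, and with the luminal score -0.0040 for Lalba, -0.077 for Gata3 and -0.0019 for Krt14. Without 1 pool they ran between -0.025 and 0.075 for Gata3, -0.072 and 0.21 for Ccnd1, -0.0070 and 0.10 for Esr1, -0.40 and 0.020 for Ereg, -0.47 and 0.015 for Pgr, -0.15 and 0.0040 for Prlr, -0.017 and 0.24 for Krt18, -0.10 and 0.19 for Lalba, and -0.0098 and 0.25 for Stat5a.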
